A study of Mus musculus with 36 samples.

Results

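Loop hubs were promoter fragments to which promoter capture Hi-C (pcHiC) lists gave 15 or more loops in neural stem cells (NSCs) of either genotype. They numbered 350 of the 16208 first-anchor fragments outside 2 regions that were left out, and 18290 fragments served as first anchor anywhere. The regions left out were chromosome 11 and chromosome 6 from position 100000000 on. The fragments were selected on the number of listed loops, so loop numbers, scores and distances are given as a description, without a test. The study compared wildtype (WT) cells with cells lacking all 3 TET genes (triple knockout, TKO). They are male mouse embryonic stem cells (ESCs) of strain V6.5, of mixed 129 and C57BL/6 origin, and NSCs differentiated from them. Feeder cells were removed from ESCs by 45 minutes of preplating, after which gelatin-coated dishes with serum and LIF held them for 24 hours. The NSCs were taken at passage 1 on day 6. Loops came from 1 WT and 1 TKO NSC library, and expression from 3 WT and 2 TKO RNA-seq samples in each cell type.

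In pcHiC, crosslinked and ligated DNA is enriched for promoter-bearing fragments, so that each listed loop joins a captured promoter fragment to another fragment of the same chromosome. Promoters with many contacts are found near gene-dense chromatin, clustered gene families and active enhancers. TET enzymes oxidise 5-methylcytosine, mostly at CpG dinucleotides, as a step in DNA demethylation at enhancers and promoters. Loop formation is known to depend on the zinc finger protein CTCF, whose binding at some sites is sensitive to CpG methylation, and on the cohesin ring.

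Promoters of 7 hub genes are shown because the results turn on them. Isg20l2, Gstm1 and Prdm16 lie on hubs with fewer loops in TKO, Sox2 and H4c9 on hubs with 15 or more loops in both lists, and Hpcal1 and Inka1 on hubs of the TKO list only. Each is the 250 bases before the annotated start from RefSeq (GRCm38.p6, the mm10 assembly), 5′ to 3′ on the gene's strand. Capitals mark CpG dinucleotides.
Isg20l2 (chr3:87930064-87930313, + strand): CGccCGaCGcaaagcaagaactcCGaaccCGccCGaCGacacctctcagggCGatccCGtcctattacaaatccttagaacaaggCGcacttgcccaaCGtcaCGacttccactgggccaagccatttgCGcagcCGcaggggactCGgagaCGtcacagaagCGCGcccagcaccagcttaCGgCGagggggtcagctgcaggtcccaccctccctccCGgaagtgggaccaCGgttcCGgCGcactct
Gstm1 (chr3:108017819-108018068, - strand): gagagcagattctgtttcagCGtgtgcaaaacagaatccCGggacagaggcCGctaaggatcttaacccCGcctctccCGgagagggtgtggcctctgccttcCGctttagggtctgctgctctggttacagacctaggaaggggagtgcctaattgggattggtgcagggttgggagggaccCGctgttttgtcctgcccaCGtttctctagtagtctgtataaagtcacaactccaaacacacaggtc
Prdm16 (chr4:154636874-154637123, - strand): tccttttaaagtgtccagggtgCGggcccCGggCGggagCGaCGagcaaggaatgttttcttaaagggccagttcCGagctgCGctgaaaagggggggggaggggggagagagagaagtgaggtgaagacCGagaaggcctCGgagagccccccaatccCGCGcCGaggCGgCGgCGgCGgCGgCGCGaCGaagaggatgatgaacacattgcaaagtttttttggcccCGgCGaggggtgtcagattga
Sox2 (chr3:34649745-34649994, + strand): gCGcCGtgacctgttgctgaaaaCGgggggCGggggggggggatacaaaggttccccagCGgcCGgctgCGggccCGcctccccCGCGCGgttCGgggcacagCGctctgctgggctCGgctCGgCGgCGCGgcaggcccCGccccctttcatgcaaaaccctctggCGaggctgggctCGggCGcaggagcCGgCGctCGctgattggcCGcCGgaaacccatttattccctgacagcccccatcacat
H4c9 (chr13:22041363-22041612, - strand): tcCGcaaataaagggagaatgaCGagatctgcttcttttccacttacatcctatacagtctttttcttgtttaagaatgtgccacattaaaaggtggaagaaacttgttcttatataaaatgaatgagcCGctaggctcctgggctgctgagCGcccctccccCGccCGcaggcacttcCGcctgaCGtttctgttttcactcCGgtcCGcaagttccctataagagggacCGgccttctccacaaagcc
Hpcal1 (chr12:17690559-17690808, + strand): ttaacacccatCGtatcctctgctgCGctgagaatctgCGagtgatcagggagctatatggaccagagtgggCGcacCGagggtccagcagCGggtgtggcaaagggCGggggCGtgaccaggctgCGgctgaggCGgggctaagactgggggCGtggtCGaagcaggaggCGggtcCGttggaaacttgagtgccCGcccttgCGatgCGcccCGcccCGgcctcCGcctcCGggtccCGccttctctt
Inka1 (chr9:107985917-107986166, - strand): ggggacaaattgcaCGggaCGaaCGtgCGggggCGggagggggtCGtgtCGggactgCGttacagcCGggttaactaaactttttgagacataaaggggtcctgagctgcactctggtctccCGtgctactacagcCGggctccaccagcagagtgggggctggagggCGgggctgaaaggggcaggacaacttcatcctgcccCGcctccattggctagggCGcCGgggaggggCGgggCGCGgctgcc

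The CpG count in these 250 bases was 8 in Gstm1, 11 in H4c9, 18 in Inka1, 22 in Prdm16 and Hpcal1, 24 in Isg20l2 and 27 in Sox2. Over 300-base windows that add 50 bases after the start, the 413 annotated starts of 361 hub genes held a median of 18 CpGs (quartiles 10 and 27). Starts on fragments with 1 to 4 loops in their fuller list held a median of 16, those on fragments with 5 to 14 loops 19, and the full set of 32851 RefSeq starts a median of 7. The hub median lay between those of the other captured promoters, and 10.9% of hub windows held fewer than 5 CpGs, against 10.9% for 5 to 14 loops and 20.6% for 1 to 4. The hub classes gave medians of 18 for hubs in WT only, 16 for hubs in both and 18.5 for hubs in TKO only. Of motifs searched on both strands, the CTCF core (CCA, any 2 bases, AG, any 2 bases, GGC) was in 3.87% of hub windows, 2.33% of those with 1 to 4 loops, 3.44% of those with 5 to 14, and 2.43% of all. GGGCGG, the box bound by SP1-type factors, was in 54.0% of hub windows and 35.7% of all, CCAAT in 41.6% and 37.4%, and TATAAA in 11.6% and 13.6%. Windows with 1 to 4 loops held GGGCGG in 52.7%, CCAAT in 36.8% and TATAAA in 10.6%. Those with 5 to 14 loops gave 59.2%, 39.0% and 7.04%, so the GGGCGG share of hubs lay between those of the other captured promoters. In Gstm1 a TATAAA began 30 bases before the annotated start.

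The 2 loop lists held 59754 loops in WT and 58145 in TKO, each with a listed score of at least 5, from libraries of 170 M to 190 M read pairs per the labels. In the NSC RNA-seq table the recovered reads came to 42.8 M to 49.1 M per library. All 8 neural stem cell markers were measured in the NSCs of both genotypes, and all 8 were lower in TKO. Their summed normalised read count was 363232 to 375151 in WT and 182058 to 190760 in TKO. Fibroblast and feeder cell markers summed to 44514 to 56350 in WT and 117115 to 136521 in TKO (5 of 6 higher, 1 lower), with all of them on other fragments than the hubs. Pluripotency markers summed to 446 to 647 in WT and 2052 to 3861 in TKO (3 of 5 higher). Mesoderm markers gave 689 to 778 and 2647 to 3356 (2 of 4 higher), and epithelium markers 2016 to 2546 and 4573 to 8917 (2 of 4 higher). Astrocyte markers gave 12152 to 13894 in WT and 1395 to 1691 in TKO (3 of 5 lower). Oligodendrocyte markers gave 1597 to 1774 in WT and 2339 to 2592 in TKO (1 of 4 higher). Neuron markers gave 12175 to 15435 and 12009 to 12729 (2 of 6 lower), and endoderm markers 81.6 to 141 and 234 to 419 (1 of 3 higher). These marker counts stand against 18.2% higher and 19.5% lower over all genes tested in NSCs. In bulk RNA, fewer cells of a type and less RNA per cell cannot be told apart, and the part of cell composition in the results below was not tested. Reads of Tet1, Tet2 and Tet3 persisted in the TKO NSCs, with log2 fold changes of -0.47, 0.14 and -0.73 and limma adjusted p of 0.0320, 0.459 and 1.60e-05. The sources used here do not name the deleted exons, so these gene totals check no label.

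Hub fragments carried 5898 loops in WT and 5232 in TKO, a ratio of 0.887, and all fragments outside the regions left out gave 52703 and 46726, also 0.887. TKO thus held 47.0% of the hub loops of the 2 lists. The regions left out had the opposite balance, with TKO to WT ratios of 1.60 on chromosome 11 and 1.74 on distal chromosome 6. They hold another 124 fragments with 15 or more loops. With the same 15-loop limit, 153 hubs qualified in WT only, 104 in both lists and 93 in TKO only. TKO listed fewer loops than WT on 208 hubs, the same number on 6 and more on 136. On 66 hubs the number was lower by 10 or more, and on 30 it was higher by 10 or more. The median was 16 loops in WT (range 4 to 49) and 15 in TKO (0 to 53). Just inside the limit, 77 fragments had exactly 15 loops in their fuller list with a median of 9 in the other (2 to 15), and just outside it, 73 had 14 with a median of 9 (1 to 14). The 15-loop line therefore falls in a continuous range of loop numbers.

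**Figure D1:**
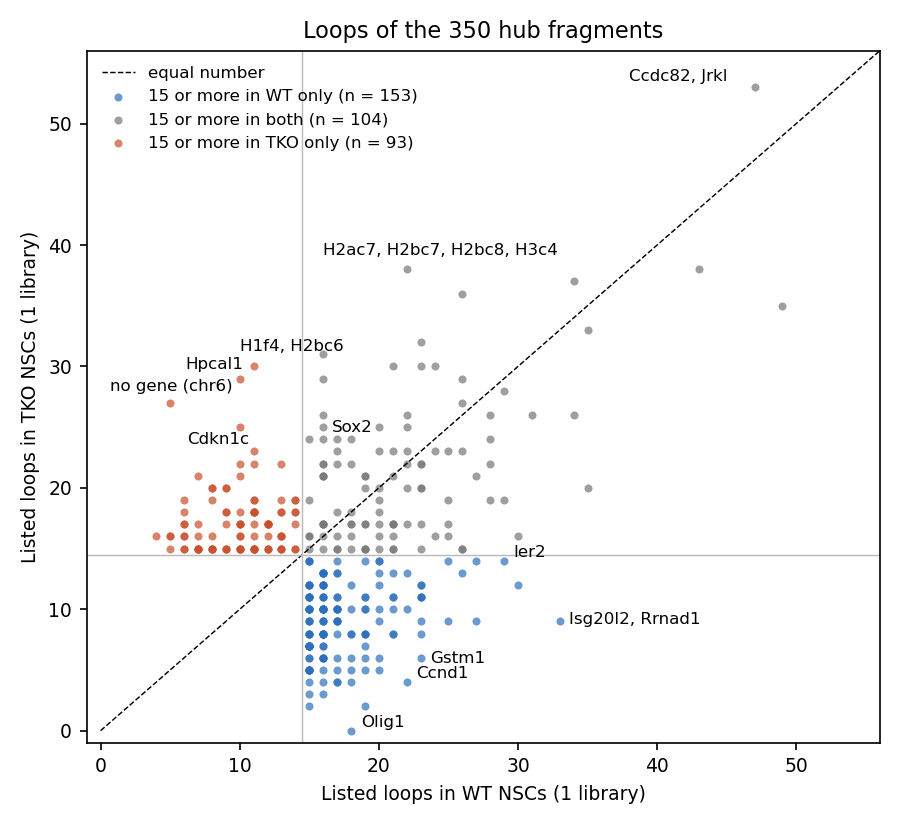
Listed loops of each of the 350 hub fragments in the WT (x axis) and TKO (y axis) NSC library, with 1 point per fragment and colour by the list in which it reached 15 loops. Ccdc82 with Jrkl sits at 47 and 53 loops near the dashed line of equal number, while Olig1 sits at 18 and 0 and Hpcal1 at 10 and 29.

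Hubs made up 2.16% of fragments and carried 11.2% of the loops in each list. The fragments were of ordinary size, with a median of 5125 bp against 5130 bp for fragments with 1 to 4 loops. Hub loops were nearer, with a median distance of 189 kb in WT and 191 kb in TKO, against 249 and 255 kb for 1 to 4 loops and 202 and 203 kb for 5 to 14. Their median listed score was 6.75 in WT and 6.65 in TKO, against 6.03 and 5.98 for 1 to 4 loops and 6.31 and 6.26 for 5 to 14. Their far ends were less often captured promoters themselves, at 35.2% in WT and 33.8% in TKO. Fragments with 1 to 4 loops had 52.0% and 50.6%, and those with 5 to 14 had 49.7% and 49.2%. Hub far ends also lay side by side, with 64.6 separate runs of adjacent fragments per 100 loops in WT and 65.8 in TKO. The runs numbered 96.4 in both lists for 1 to 4 loops, and 84.1 and 85.0 for 5 to 14. A hub's listed loops thus outnumbered the separate places they reached, with a median of 11 runs per hub in WT and 9 in TKO. A single loop always counts as a run of its own, so runs per 100 loops can only fall as loop number rises. This measure is therefore not independent of the rule either. The same loop was found in the other genotype's list for 41.7% of WT hub loops and 47.1% of TKO hub loops, against 16.1% and 17.6% for fragments with 1 to 4 loops and 29.7% and 34.1% for 5 to 14. Fragments with many loops in 1 list have more listed partners by choice, so these shares are not independent of the rule.

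Hubs lay on every autosome outside chromosome 11, and the X chromosome held none among 392 fragments. Chromosomes 2 and 8 held 37 hubs each, chromosome 9 held 34 and chromosome 7 held 33. On chromosome 8, 22 of the 37 were hubs in WT only and 5 in TKO only, and on chromosome 3 the numbers were 16 and 2 of 23. Chromosome 9 was the other way, with 6 in WT only and 14 in TKO only. These chromosomes also differed over all their loops: the TKO to WT ratio was 0.794 on chromosome 3, the lowest, 0.828 on chromosome 8, and 0.957 on chromosome 9, the highest among autosomes outside the regions left out. The part of such chromosome-wide differences in the change of single hubs was not tested.

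**Figure D2:**
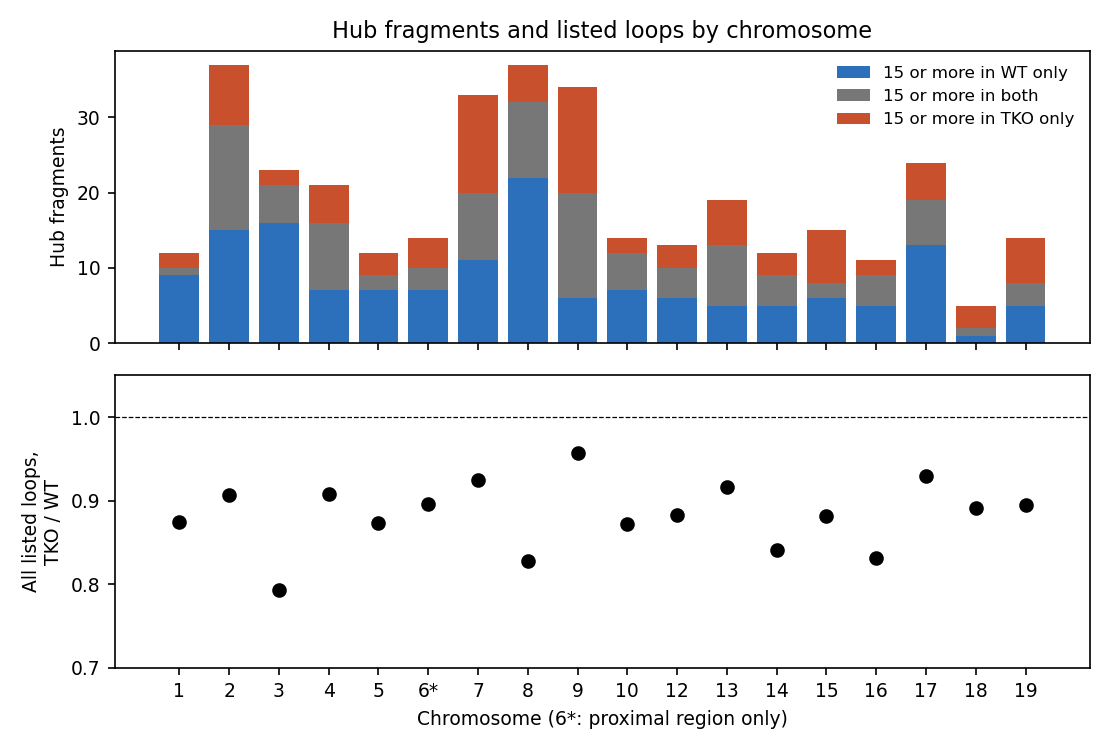
The upper panel stacks the number of hub fragments per chromosome by the list in which they reached 15 loops, and the lower panel gives the TKO to WT ratio of all listed loops of that chromosome. Chromosome 8 has 22 hubs in WT only at a ratio of 0.828, and chromosome 9 has 14 in TKO only at a ratio of 0.957.

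Many hubs were neighbours. Hubs under 100000 bp apart formed 52 groups with 138 hubs, and 212 stood alone. The largest group, of 9 hubs at chr13:23529432-23751920, covers part of the main cluster of replication-dependent histone genes and had 160 loops in WT and 192 in TKO, with 6 hubs higher and 3 lower. A group of 6 at chr9:107884204-108085911 holds Mon1a, Mst1r, Traip, Inka1, Mst1 and Rnf123. All 6 of its hubs had more loops in TKO, 67 in WT against 110. On chromosome 8 the group with Nutf2, Edc4, Nrn1l and Pskh1 (chr8:105858530-105904893) went from 75 to 28 loops, with all 4 hubs lower. The group with Ctcf, Acd and Pard6a (chr8:105633252-105711501) went from 71 to 36, with all 3 lower. At chr3:87929498-88085835 the hubs of Isg20l2 with Rrnad1, of Bcan and of Iqgap3 together went from 64 to 24 loops, again with all 3 lower. Hubs in 1 group share fragments, contacts and read coverage and are not separate observations.

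Among the hubs with the largest losses, the fragment of Isg20l2, which encodes a ribosome-processing exonuclease, and Rrnad1 (chr3:87929498-87934585) fell from 33 loops to 9. In WT its far ends held the starts or ends of 19 annotated genes, among them Nes, the intermediate filament gene of neural stem cells, the brain matrix proteoglycan gene Bcan, and Crabp2, which encodes a retinoic acid carrier. The WT loop to the Nes fragment lay 41.4 kb away with a score of 6.11 and was not listed in TKO. The loops to the Bcan and Crabp2 fragments, 67.2 and 21.0 kb away, were listed in both. The Ccnd1 fragment (chr7:144937400-144942883), at the gene for cyclin D1, had 22 loops in WT, all between 134 and 362 kb to one side. It had 4 in TKO, and the best-scoring loop, 301 kb away, was in both lists with scores of 20.2 and 17.3. The single TKO loop to the other side, 358 kb away, ended at Fadd.

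Olig1, an oligodendrocyte lineage transcription factor, was the only hub with no loop in the other list (chr16:91268439-91273550, 18 loops in WT and 0 in TKO). Its best WT score, 13.2, belonged to a loop 45.8 kb away whose far end holds its paralog Olig2, and another loop, 227 kb away, ended at Paxbp1. Other hubs with large losses were Zfp128 (30 to 12), Abhd8 with Mrpl34 (27 to 9), Gstm1 (23 to 6), Gpr61 (19 to 2), Aars with Ddx19b (25 to 9), Ier2 (29 to 14) and Dguok (35 to 20). Gstm1 and Gpr61 lie on neighbouring hubs of chromosome 3, and in WT the far ends of each hub held a start or end of the other gene. In TKO the only Gstm1 loop toward Gpr61, 130 kb away, ended on a fragment that holds an end of Gpr61 but is not its hub. All 6 TKO loops of the Gstm1 hub, this one included, were also listed in WT. The TKO loops of the Gpr61 hub reached no start or end of Gstm1.

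Gains of loops were led by a fragment with no annotated gene start or end (chr6:97730917-97735955), with 5 loops in WT and 27 in TKO, of which 23 pointed to one side. Hpcal1 (chr12:17689520-17694927), which encodes a neuronal calcium sensor, had 10 and 29. Its best-scoring loop was the same in both lists, 144 kb away, with scores of 22.9 in WT and 19.5 in TKO, and that far end, the fragment of Gm22748, was itself a hub with 31 and 26 loops. The fragment of the linker histone gene H1f4 and H2bc6 had 11 and 30, and that of H2ac7, H2bc7, H2bc8 and H3c4 had 22 and 38. Further gains were seen for Aqp7 (16 to 31), Btbd6 (10 to 25), Tgoln1 (16 to 29), Bcl2l12 with Irf3 (6 to 19), and Cdkn1c (11 to 23). Cdkn1c, the imprinted gene of a cyclin-dependent kinase inhibitor, had all 11 WT loops between 165 and 393 kb to one side, toward Kcnq1ot1 and Tssc4, and 22 of 23 TKO loops on that side.

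**Figure D3:**
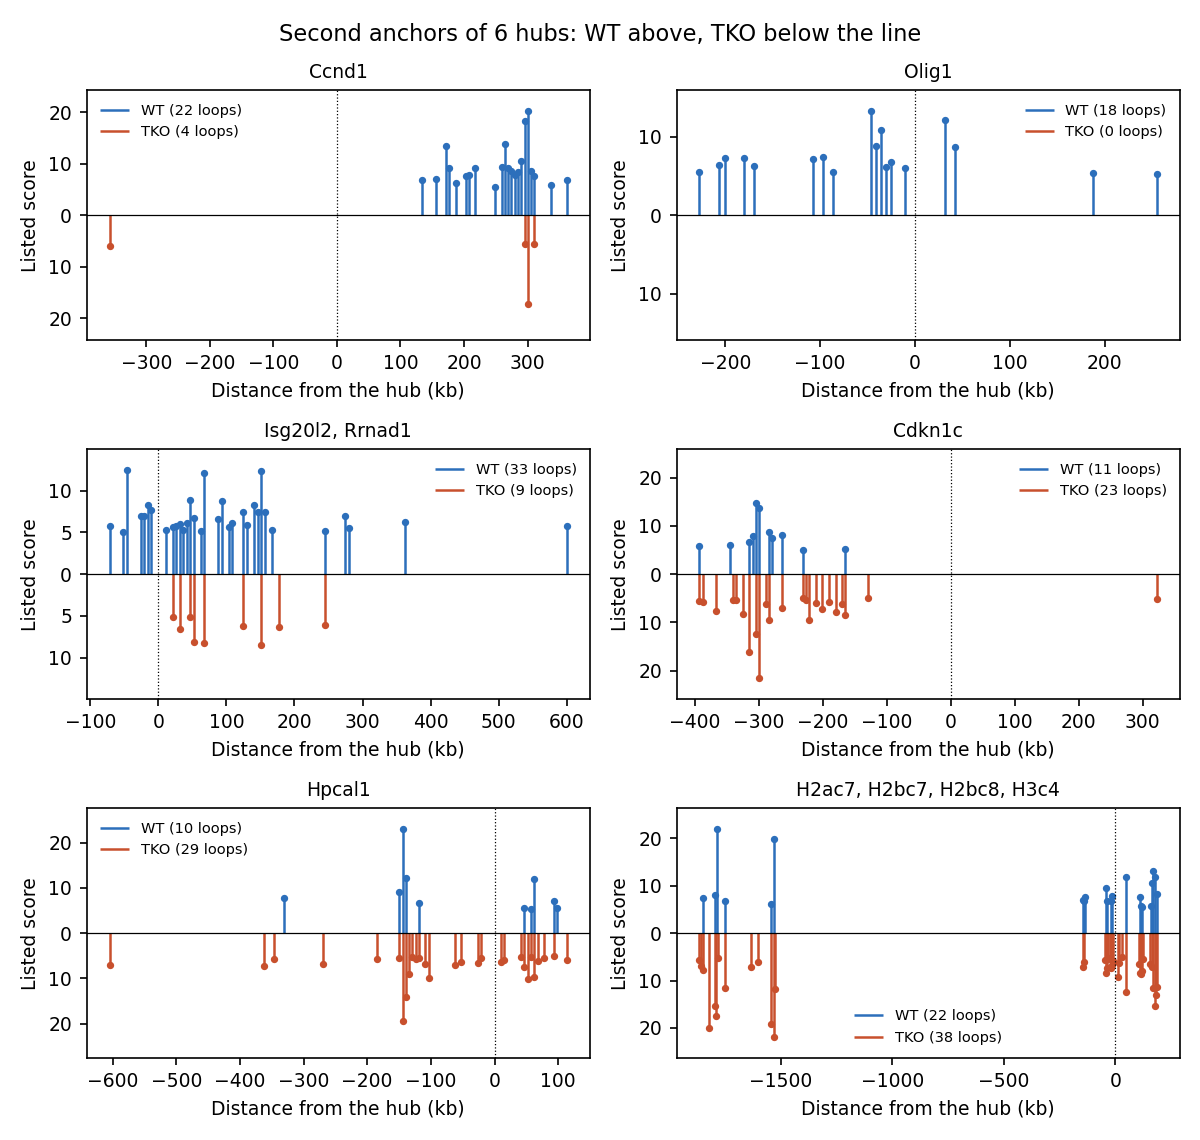
Far ends of the loops of 6 hubs, by distance from the hub in kb (x axis, negative toward lower coordinates) and listed score (height), with WT above and TKO below the line. Ccnd1 and Olig1 have 22 and 18 WT loops against 4 and 0 in TKO, Cdkn1c and Hpcal1 gain loops in TKO, and the histone hub reaches a second set of fragments over 1500 kb away in both.

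Several of the fullest hubs were full in both lists. Ccdc82 with Jrkl had 47 loops in WT and 53 in TKO, with 38 in common. All of them lay on 1 side, from 191 kb out in WT and 181 kb out in TKO, toward Maml2, Mtmr2 and Cep57, and formed only 15 runs of adjacent fragments in WT and 14 in TKO. Cstad had 43 and 38, Dscaml1, a cell adhesion gene, 35 and 33, and Flot1 with Ier3 34 and 26. The fragment of H2ac11, H2bc11 and H4c9 had 34 and 37. Its loops were long, with a median distance of 1486 kb in WT and 1478 kb in TKO, between parts of the histone cluster on chromosome 13.

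Histone hubs differed from the rest in reach. The 12 hubs that hold a gene of the histone list, 11 on chromosome 13 and 1 on chromosome 3, had 231 loops in WT and 277 in TKO, with 9 higher and 3 lower. In WT 33.8% of their loops spanned over 1000 kb and in TKO 33.6%, against 0.865% and 1.09% on the other 338 hubs. They thus held 78 of the 127 longest hub loops in WT and 93 of the 147 in TKO. Histone genes are near-identical copies, so that reads of both assays may be shared between fragments or genes where copies cannot be told apart.

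The 508 genes held by hubs comprised 398 protein-coding genes, 52 long non-coding RNAs, 31 snoRNAs and 27 of other kinds. A gene was assigned where its annotated start lay in the fragment, or, for the 147 genes with no start in the promoter table, either end of its span. Of the hubs, 22 held no gene, 184 held 1 and 144 held more, up to 6, and 93.7% held at least 1 gene, against 84.1% for fragments with 1 to 4 loops. Expression did not enter the choice of hubs. Of the 508 genes, 385 were in the NSC table with a mean of at least 10 and were tested with limma.

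In NSCs, 43 hub genes were higher and 96 lower in TKO (adjusted p under 0.05), which is 36.1% of the 385 tested. Of all 17744 genes tested, 37.7% were called, 18.2% higher and 19.5% lower, so the overall share of hub genes called was close to the background. The split between directions was 11.2% higher and 24.9% lower on hubs. On fragments with 1 to 4 loops it was 16.0% and 23.0%, and with 5 to 14 loops 14.6% and 22.3%. With the libraries scaled to equal totals it became 59 higher and 83 lower, so that the higher share of calls moved from 30.9% to 41.5%. The median log2 fold change of hub genes was -0.06 against 0.006 for all genes tested. A change of 2-fold or more was called for 11 genes upward and 36 downward, which is 12.2% of hub genes tested. Over all genes tested it was called for 1040 upward and 1240 downward, or 12.8%. Genes on fragments with 1 to 4 loops gave 13.6% and those with 5 to 14 loops 9.52%. Fold changes here are on the scale of log2(normalised read count + 1).

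Split by class, 22 of 159 genes on hubs in WT only were higher and 49 lower (44.7% called, median -0.11). On hubs in both lists 8 of 140 were higher and 33 lower (29.3%, median -0.02), and on hubs in TKO only 13 of 87 were higher and 14 lower (31.0%, median -0.04). Among hubs with a loss of 10 or more loops, 8 of 73 genes were higher and 21 lower, and among those with a gain of 10 or more, 5 of 32 were higher and 2 lower. Read from the genes, 66 of the 96 lower genes (68.8%) and 28 of the 43 higher genes (65.1%) lay on hubs with fewer loops in TKO, as did 134 of the 246 genes not called (54.5%). Genes that were higher and genes that were lower were thus both mostly on hubs with fewer loops. These shares are counts over genes with shared fragments and 1 loop library per genotype, and whether they differ was not tested.

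**Figure D4:**
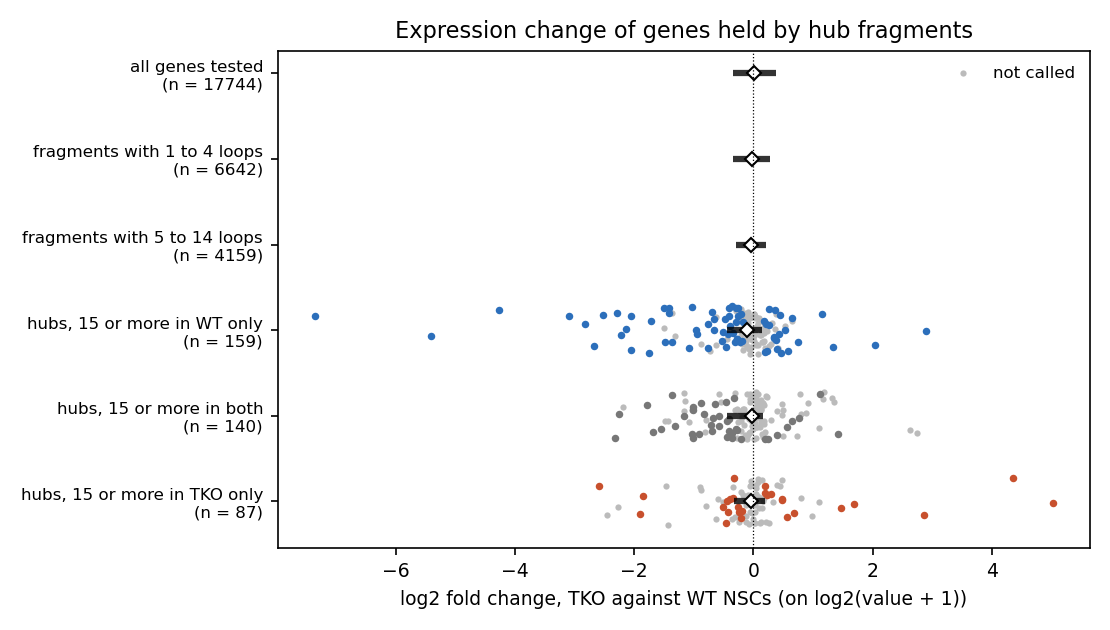
Log2 fold change (TKO against WT NSCs) for genes on hubs, as 1 coloured point per called gene and grey points for genes not called, with the median (diamond) and quartiles (bar) per class and for 3 reference sets shown without points. Medians lie between -0.11 and 0.006, and the points left of -4 are Gm5089, Prdm16os and Ecrg4 on hubs in WT only.

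The genes that fell included transcription factors known from neural stem cells and glia. Prdm16, a zinc finger regulator of neural stem cells, had normalised read counts of 1028, 871 and 945 in WT and 114 and 154 in TKO (log2 fold change -2.83 ± 0.18 SE, limma adjusted p 4.85e-07), on a hub with 17 loops in WT and 8 in TKO. Its antisense RNA Prdm16os, on the same fragment, had 64.1, 19.5 and 57.3 in WT and was listed at 0 in both TKO libraries. Against a floor of 3 reads per library it was at least 16.0-fold lower. The sources used here do not say if the counting used strand, and reads of an antisense pair cannot be told apart without it. Olig1 had 918, 1126 and 1477 in WT and 202 and 158 in TKO (-2.68 ± 0.20, limma adjusted p 1.91e-06). Olig2, its strongest listed contact in WT, fell with it, from 814, 1115 and 1464 to 45.9 and 17.6 (-5.22 ± 0.36, limma adjusted p 1.08e-06). Sox2, which maintains neural stem cells, had 15087, 14463 and 16470 in WT and 6629 and 8555 in TKO (-1.02 ± 0.10, limma adjusted p 1.08e-05). Its hub moved the other way, with 16 loops in WT and 24 in TKO. In each of these genes the WT and TKO libraries did not overlap, which held in the same direction (TKO below WT) for 29.9% of all genes tested.

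The cyclin D1 gene Ccnd1 showed a change that was large against the spread of its libraries. Its counts were 22774, 26328 and 24289 in WT and 5219 and 5226 in TKO (-2.23 ± 0.07, limma adjusted p 2.90e-09). The glutathione transferase gene Gstm1 had 10954, 12369 and 10160 against 1888 and 2745 (-2.29 ± 0.13, limma adjusted p 2.95e-07). Pxdc1 had 5747, 4762 and 5505 against 1065 and 799 (-2.53 ± 0.12, limma adjusted p 7.22e-08), on a hub that went from 19 loops to 6. Ecrg4, which encodes a secreted peptide precursor of the brain lining and choroid plexus, had 2742, 2613 and 1951 against 68.0 and 223 (-4.28 ± 0.36, limma adjusted p 4.90e-06), on a hub that went from 21 to 8. Bcan had 763, 500 and 1111 against 72.6 and 105 (-3.09 ± 0.30, limma adjusted p 1.25e-05). The long non-coding RNA Gm5089 had 648, 614 and 575 against 3.67 and 1.95 (-7.37 ± 0.35, limma adjusted p 7.22e-08), the largest fitted fall among tested hub genes. Of the 10 largest falls, 8 were of genes on hubs in WT only. Those hubs held 159 of the 385 tested genes and 49 of the 96 lower genes. The exceptions were Pls1, which encodes an actin bundler (-2.60), on a hub that rose from 8 loops to 15, and the cytokine gene Il25 (-2.33), on a hub with 16 loops in both.

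Genes that rose were fewer, and their hubs went both ways. Dnmt3l, the catalytically inactive partner of the de novo DNA methyltransferases, had 6.20, 6.50 and 3.89 in WT and 154 and 111 in TKO (4.36 ± 0.61, limma adjusted p 0.000179), on a hub with 6 loops in WT and 15 in TKO. Inka1, an inhibitor of the kinase PAK4, had 244, 149 and 199 against 1605 and 1234 (2.86 ± 0.21, limma adjusted p 2.01e-06), on a hub with 6 and 16. Rab3il1 and Best1, which share a hub with 14 and 17 loops, both rose, Rab3il1 from 386, 375 and 373 to 1214 and 1234 (1.69 ± 0.13, limma adjusted p 1.94e-06). Best1 was near 0 in WT, at 2.07, 0 and 0, and had 34.9 and 61.5 in TKO (limma adjusted p 0.00384). Dusp4, a phosphatase that turns off MAP kinases, rose from 992, 1002 and 1102 to 2999 and 2715 (1.47 ± 0.10, limma adjusted p 6.98e-07), on a hub with 10 and 15.

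The collagen gene Col14a1 rose from 62.0, 115 and 99.1 to 509 and 888 (2.90 ± 0.32, limma adjusted p 2.94e-05), although its hub went from 17 loops to 10. Ier2, an immediate early gene, rose from 4239, 3866 and 3920 to 9208 and 8601 (1.15 ± 0.07, limma adjusted p 3.93e-07), and its hub went from 29 to 14. The other genes among the 10 largest rises were Gmfg (2.04), Fggy (1.42) and Khk (1.34), all on hubs with fewer loops in TKO. The call for Gmfg was lost without TKO replicate 1 (1.72, adjusted p 0.188), TKO replicate 2 (2.35, 0.0703), WT replicate 2 (1.53, 0.0661) or WT replicate 3 (2.10, 0.0595). In all the genes of these last paragraphs whose libraries are given, every TKO library lay above every WT library, as for 30.0% of all genes tested.

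**Figure D5:**
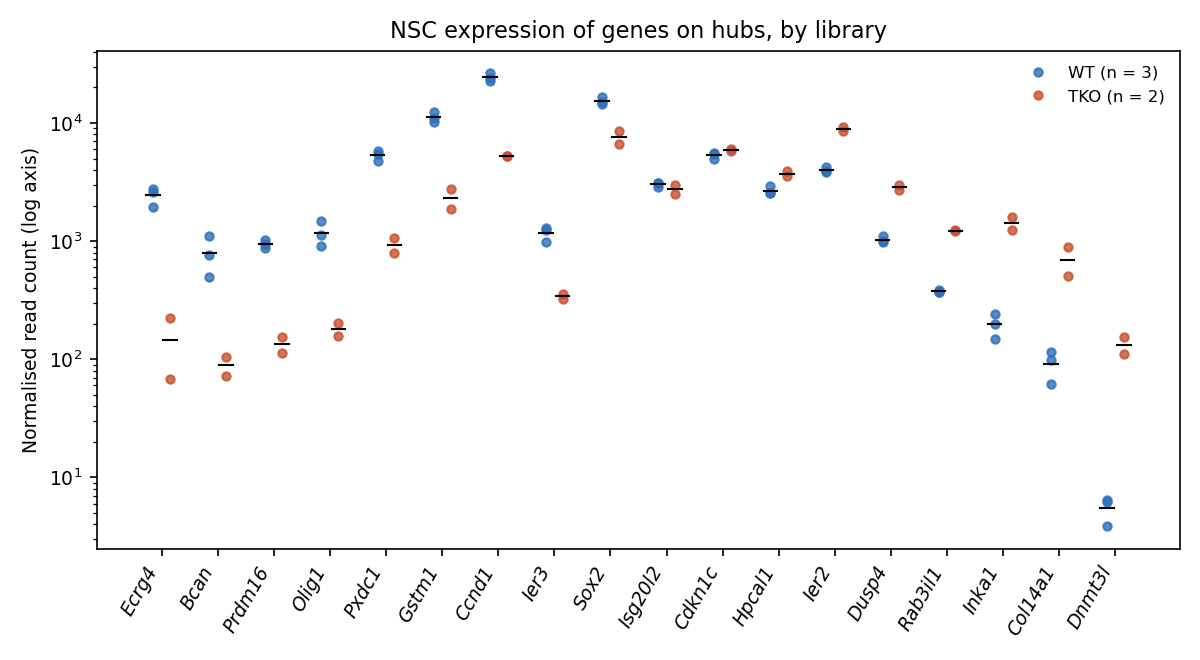
Normalised read counts (log axis) of 18 genes held by hubs in the 3 WT and 2 TKO NSC libraries, with 1 point per library and a bar at the mean. Ccnd1 lies at 22774 or more in each WT library and at 5226 or less in each TKO library, while Isg20l2 overlaps between genotypes although its hub went from 33 loops to 9.

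Large differences in loop number also went with small or undetected differences in expression. Isg20l2 had 3082, 2858 and 3127 in WT and 2987 and 2490 in TKO (-0.15 ± 0.09, limma adjusted p 0.236), and Rrnad1 on the same fragment was not called either (0.16 ± 0.11, 0.278). Zfp128 (30 loops to 12) gave 0.20 ± 0.24, Aars (25 to 9) 0.13 ± 0.07 and Ddx19b on the same hub -0.01 ± 0.09, with limma adjusted p of 0.569, 0.154 and 0.968. Abhd8 and Mrpl34 share a hub that went from 27 loops to 9, and Abhd8 fell (-0.45 ± 0.07, limma adjusted p 0.000542) while Mrpl34 gave 0.20 ± 0.08 (0.0614). Mrpl34 was called higher with edgeR (adjusted p 0.0477), DESeq2 (0.0417), equal totals (0.0291) and a mean filter of 50 (0.0478). On hubs that gained, Hpcal1 rose modestly, from 2556, 2914 and 2563 to 3909 and 3565 (0.48 ± 0.09, limma adjusted p 0.000955). Cdkn1c had 5003, 5481 and 5560 against 5840 and 6029 (0.15 ± 0.07, 0.111), and Bcl2l12 and Irf3 gave 0.08 ± 0.10 and 0.04 ± 0.08, with limma adjusted p of 0.608 and 0.738. Btbd6 fell (-0.46 ± 0.14, limma adjusted p 0.0238) while its hub went from 10 loops to 25. That call was lost without TKO replicate 1 (-0.25, adjusted p 0.222), WT replicate 1 (-0.44, 0.0837) or WT replicate 2 (-0.43, 0.0766). A p above the threshold does not show that expression was the same.

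Among genes on the fullest hubs, Ccdc82 fell from 1367, 1635 and 1482 to 928 and 1064 (-0.59 ± 0.11, limma adjusted p 0.00161), and Jrkl beside it gave -0.21 ± 0.14 (0.276). Ier3, an immediate early gene with a role in survival, fell from 1236, 1302 and 989 to 321 and 359 (-1.78 ± 0.15, limma adjusted p 3.63e-06). Flot1 on the same hub fell by less (-0.29 ± 0.08, limma adjusted p 0.0115), a call lost without TKO replicate 2 (-0.24, adjusted p 0.0847).

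Of the gene lists examined, hubs held 17 of the 31 measured histone genes, 3 immediate early genes, 2 cell cycle regulators (Ccnd1 and Cdkn1c), and 1 gene each of the loop and contact machinery (Ctcf), the homeobox and patterning factors (Olig1), the neural stem cell genes (Sox2), the TGF-beta, BMP and Wnt genes (Tcf7l1), and the matrix and adhesion genes (Bcan). They held none of the Polycomb group and clustered protocadherin lists. Of the 10 listed genes that are no histone genes, 7 were lower in TKO NSCs, 1 (Ier2) higher, and Cdkn1c and Tcf7l1 were not called, where 19.5% of all genes tested were lower and 18.2% higher. With equal totals Tcf7l1 was called higher (0.21, adjusted p 0.0291). Of the 17 histone genes, H2ac6 (-2.26), H2bc21 (-1.02) and H2bc4 (-0.70) were lower and the other 14 were not called, with a median of -0.54 over the 17. H2ac6 lost its call without TKO replicate 1 (-1.35, adjusted p 0.145), WT replicate 1 (-2.42, 0.0564), WT replicate 2 (-2.10, 0.0813) or WT replicate 3 (-2.27, 0.0679), and H2bc21 without TKO replicate 1 (-0.82, 0.0530). H2bc7, on a hub but outside that list, gained a call without TKO replicate 1 (-3.87, adjusted p 0.0439). H4c9, the histone gene whose promoter is shown above, had 355, 435 and 397 in WT and 373 and 553 in TKO (0.20 ± 0.19, limma adjusted p 0.456). Over all measured members of the lists, on hubs or not, 19 of 24 neural stem cell genes were lower and 1 higher, and 11 of 30 loop and contact genes were lower and 5 higher. Lower and higher genes numbered 13 and 5 of 27 cell cycle regulators, 16 and 9 of 35 TGF-beta, BMP and Wnt genes, 9 and 7 of 24 matrix and adhesion genes, and 26 and 23 of 66 homeobox and patterning factors. The numbers were 6 and 8 of 19 immediate early genes, 8 and 10 of 30 Polycomb genes, 6 and 2 of 31 histone genes, and 3 and 2 of 23 protocadherins. These too stand against 19.5% lower and 18.2% higher over all genes tested.

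Ctcf itself lay on a hub that went from 23 loops to 12. Its counts were 5876, 5658 and 6033 in WT and 5116 and 5171 in TKO (-0.19 ± 0.06, limma adjusted p 0.0378). The libraries did not overlap, but the call was lost without TKO replicate 1 (-0.18, adjusted p 0.133), TKO replicate 2 (-0.19, 0.0984), WT replicate 1 (-0.18, 0.0831) or WT replicate 3 (-0.17, 0.120), and also with equal totals (-0.15, 0.102).

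The far ends of the 30 hubs named for their loop number or its change held 191 tested genes that lie on no hub. Of these, 16 were higher and 51 lower in TKO NSCs (35.1% called). The total was close to the 37.7% of all genes, of which 18.2% were higher and 19.5% lower. The split thus leaned further toward lower genes than that of all genes, and whether it differs was not tested. Nes, a WT contact of the Isg20l2 hub, fell from 66722, 58916 and 60381 to 26799 and 31666 (-1.09 ± 0.08, limma adjusted p 1.47e-06). Crabp2, a contact of the same hub in both lists, rose from 257, 311 and 255 to 1930 and 691 (2.08 ± 0.33, limma adjusted p 0.000415). Genes contacted by 1 hub thus went in both directions.

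In ESCs, 379 hub genes were tested, of which 6 were higher and 52 lower in TKO (15.3% called). Of all 17033 genes tested, 14.3% were called, 7.29% higher and 7.02% lower. Chromosome 8 supplied 32 of the 52 lower genes, out of 46 of its hub genes tested. Without chromosome 8, 6 of 333 were higher and 20 lower (7.81% called). With each chromosome centred on its own median, 7 were higher and 25 lower, and leaving out TKO replicate 2 gave 28 called genes and leaving out WT replicate 2 gave 36. In NSCs chromosome 8 contributed 9 lower and 8 higher hub genes, and 35 of 340 genes were higher and 87 lower without it. Loops were measured in NSCs only, so no hub was compared with its state in ESCs.

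Of the hub genes, 29 were called in both cell types, 15 of them in the same direction. Ccnd1 was lower in TKO in both, with a log2 fold change of -0.83 in ESCs (limma adjusted p 1.56e-05). Most of the large NSC changes with a test in ESCs were not called there: Prdm16 gave 0.81 (limma adjusted p 0.108), Olig1 -0.30 (0.118), Gstm1 -0.27 (0.0932) and Dnmt3l 0.12 (0.337). Yet in ESCs every TKO library lay below every WT library for Olig1 and Gstm1, and above for Prdm16 and Dnmt3l. That held for 21.6% (below) and 21.9% (above) of all ESC genes tested. Sox2 was higher in TKO ESCs (0.30, limma adjusted p 0.0112). Ier2 and Dusp4, higher in TKO NSCs, were lower in TKO ESCs (log2 fold changes -0.55 and -0.77, limma adjusted p 0.000384 and 0.000353), and both lie on chromosome 8. Rab3il1, on chromosome 19, was likewise higher in TKO NSCs and lower in TKO ESCs (-0.95, limma adjusted p 0.0235). The tests of these differences between cell types are given among the closing observations.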

How the data were processed

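The deposited RNA-seq tables hold a normalised signal: per the labels and the submitters' processing notes, the authors divided read counts per gene by DESeq2 size factors, separately for ESCs and NSCs. Those notes name STAR 2.7.3a, DESeq2 1.40.2, Trim Galore 0.6.5 and featureCounts, with the build mm10. Of the NSC values, 100% were whole reads within a tolerance of 1e-06 after scaling, and the recovered counts served in count tests. Count tests were not run in ESCs. The pcHiC loops come with the authors' deposited score per loop. The sources used here name neither the loop caller nor its score minimum, and loops between captured fragments can be listed from both ends. All columns matched sample labels (0 left unused).

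Genes were placed on GRCm38.p6 by symbol (92.4% of NSC genes), by RefSeq start for 69.9% and otherwise by either end of the span. For each cell type, limma 3.58.1 (R 4.3.3, with a trended prior) tested TKO against WT on log2(value + 1), two-sided, after a check on simulated data. Genes needed a mean of 10 or more, and calls a Benjamini-Hochberg adjusted p under 0.05 over all genes. The effects in NSCs and ESCs were compared by an interaction over 15369 genes. edgeR 4.0.16 and DESeq2 1.42.0 on recovered reads were alternatives, as were other pseudocounts (0.5 and 5), mean filters, scalings, hub limits (10 and 20 loops, score of at least 10), gene assignments, a replicate block and leaving out each sample.

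Per the labels the samples are separate lines, 3 WT and 2 TKO, and p-values measure the spread between these. The numbers shared between WT and TKO replicates mark no stated pairing. Pair correlations of deviations were 0.00748 and -0.0209 in NSCs and 0.00610 and -0.000891 in ESCs. The loop lists have 1 library per genotype and no test. Genes were named if held by the 10 hubs with the most loops in each list, the 10 with the largest loss and the 10 with the largest gain, if among the 10 largest called changes in each direction in NSCs, or if on a hub and in a list. Of these, 1 hub that this rule names is not reported here. Nes, Olig2, Crabp2, Fadd and the hub groups were named after their values were seen. Members and lists were chosen with earlier results of these data known. Samples of CUT&Tag (20) and bisulfite sequencing (4) were left out.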

Additional observations from a re-analysis of the deposited data

Results flagged for a closer look

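The TKO effect on 29 of the named hub genes differed between NSCs and ESCs in the limma interaction test (adjusted p under 0.05 over 15369 genes), of 69 with such a test, where 20.7% of all 15369 passed. Of those 69, 17 had been named for being among the 10 largest changes in either direction in NSCs, a choice that favours a difference from ESCs, and 16 of them passed. Of the other 52, 13 passed. Values here are the log2 fold change in NSCs minus that in ESCs.

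Genes with a more negative effect in NSCs included the stem cell and glial genes. The difference was -3.64 for Prdm16, -2.38 for Olig1, -3.21 for Bcan and -1.32 for Sox2. It was -1.40 for Ccnd1, which was lower in TKO in both cell types. Among other genes with falls in NSCs it was -6.39 for Ecrg4, which has low counts in ESCs, -3.14 for Pls1, -2.52 for Pxdc1, -2.01 for Gstm1 and -1.73 for Ier3. The histone genes H2bc21 and H2bc4 gave -2.65 and -0.76, and Btbd6 gave -0.996. H2bc21 also has low counts in ESCs, with means of 5.93 in WT and 20.8 in TKO.

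Genes with a more positive effect in NSCs included Dnmt3l at 4.24, Best1 at 4.56, Col14a1 at 4.57, Inka1 at 3.09 and Rab3il1 at 2.64. Some of these sizes rest on low counts. Mean ESC counts in WT and TKO were 17.3 and 5.15 for Col14a1, 21.9 and 28.8 for Best1, and 32.7 and 27.2 for Inka1. Best1 had a mean of 0.689 in WT NSCs. In ESCs Dnmt3l had mean normalised read counts of 13646 ± 523 (SD, n = 3) in WT and 14814 ± 361 (SD, n = 2) in TKO, in the separately normalised ESC table. Fggy gave 1.53, Khk 1.31, Dguok 0.71 and Cdkn1c 0.58. On chromosome 8, where 32 of 46 tested hub genes were lower in TKO ESCs, the difference was 2.24 for Dusp4, 1.70 for Ier2, 0.67 for Aars, 0.66 for Mrpl34, 0.60 for Jund, 0.52 for Abhd8 and 0.38 for Ddx19b. The part of a chromosome-wide level in these was not tested.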

How the results depend on the processing

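Of 75 named genes with a test, 64 kept their call under every alternative, and no called gene changed direction. The 139 hub genes called in NSCs became 429 with a limit of 10 loops, 50 with 20, 1 (of 5 tested, on 2 hubs) with scores of at least 10, 92 with loops listed from both ends counted once, and 227 (120 higher, 107 lower) with chromosome 11 and distal chromosome 6 kept in. Their called shares were 37.0%, 30.7%, 20.0%, 35.4% and 44.3%, against 36.1%, and the cause was not tested. The 58 called in ESCs became 160, 26, 0 and 102 with limits of 10 and 20, scores of at least 10 (0 of 5 tested with limma) and the regions kept in, 32 with chromosomes centred, and 26 without chromosome 8, an alternative added after seeing the data. The TKO share of hub loops, 47.0%, was 54.9% with scores of at least 10 and 51.6% with the regions kept in, over 474 hubs. Leaving out single samples gave 28 to 56 called hub genes in ESCs, with 28 without TKO replicate 2 and 36 without WT replicate 2, and 106 to 117 in NSCs. Over all ESC genes it gave 1108 (without TKO replicate 2) to 2302, against 2437. Count tests on NSC hub genes called 138 with edgeR and 149 with DESeq2.

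The replicate block gave 141 called hub genes in NSCs (6275 over all genes) and 41 in ESCs (1912 over all genes). The samples share only a number. Ctcf was not called with the block (-0.16, adjusted p 0.131).

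The 1 loop library per genotype, the unknown loop caller and the listing only of scores of at least 5 limit what a difference in loop number can show. Where a sample is left out of TKO, the remaining one is assumed to vary like WT.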
